A study of Mus musculus with 6 samples.

Results

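The lysyl oxidase family is a set of 5 secreted copper enzymes encoded by Lox, Loxl1, Loxl2, Loxl3 and Loxl4. Its rows were taken from the deposited expression table by gene symbol, which found all 5 members among 45038 genes, each once. RNA had been sequenced from cells of mouse hearts that were positive for the tdTomato reporter and negative for F4/80, a macrophage antigen. In the MI group, 3 libraries came from infarct tissue of C57BL/6 mice carrying Tie2-Cre and Rosa-LSL-tdTomato, whose left anterior descending coronary artery had been tied at 6 to 8 weeks of age. In the Normal group, 3 libraries came from normal left ventricle, labelled as without that surgery, and the labels give these samples the same strain and the same protocol text, with harvest 3 weeks after surgery. The Tie2 promoter that drives the Cre is active in endothelial cells and also in part of the blood cell lineage, so the sort is not restricted to endothelium. Both groups carry the numbers Ms1535, Ms1537 and Ms1608 in their titles, and the labels do not say whether a shared number means a shared mouse. The labels do not describe separate animals or cultures within a group, so p-values measure only the spread between these libraries.

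Lysyl oxidases remove the amino group from lysines in collagen and elastin, and the aldehydes that form join neighbouring chains into crosslinks. Lox and Loxl1 are made as proenzymes that a protease of the Bmp1 type trims, whereas Loxl2, Loxl3 and Loxl4 carry scavenger receptor repeats in front of the same kind of catalytic domain. In the heart these enzymes are known for stiffening scar collagen after injury, with fibroblasts as a main source, and Loxl2 is known from endothelial cells as an enzyme of basement membrane assembly.

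The catalytic domain is where the members resemble each other most, and its sequence decides how well short reads can be assigned to a member. In the GENCODE M21 coding sequences (GRCm38), the 60-base stretch within 1 exon that was most alike in Loxl1, Loxl2, Loxl3 and Loxl4 is shown here, 5′ to 3′ on the coding strand, with capitals at the 40 bases that are identical in all 4 genes. It lies at chr9:58292569-58292628 (minus strand, exon 5 of 7) in Loxl1, at chr14:69690211-69690270 (plus strand, exon 12 of 14) in Loxl2, at chr6:83050385-83050444 (plus strand, exon 12 of 14) in Loxl3 and at chr19:42597945-42598004 (minus strand, exon 13 of 15) in Loxl4.
Loxl1: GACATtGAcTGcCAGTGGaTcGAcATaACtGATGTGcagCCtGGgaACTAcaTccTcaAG
Loxl2: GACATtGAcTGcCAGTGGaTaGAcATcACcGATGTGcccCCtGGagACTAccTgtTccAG
Loxl3: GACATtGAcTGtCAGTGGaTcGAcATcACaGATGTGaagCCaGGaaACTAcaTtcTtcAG
Loxl4: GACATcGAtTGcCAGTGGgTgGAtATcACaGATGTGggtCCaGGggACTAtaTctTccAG
Between pairs of these 4 genes, 45 to 51 of the 60 bases were identical. Over the whole annotated transcripts, the longest run of identical bases shared by any pair of members was 32, between Lox and Loxl1, against a read length of 100 bases. A read of 100 bases from these transcripts therefore cannot match more than 1 member along its full length without a mismatch. Lox was not compared in the stretch shown. The treatment of reads with several matches is not given, and wrong assignment of reads was not tested. Overlapping genes are a separate matter, because the strand setting is not given in the sources used here. Loxl3 shares 1297 bases of its span with Htra2, a mitochondrial protease gene on the opposite strand, which had 5.75, 3.49 and 9.78 FPKM over the MI libraries and 3.64, 1.91 and 9.25 over the Normal ones. Loxl2 shares its span with the antisense gene Gm27177, which had at most 0.156 FPKM in any library.

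Levels are given in FPKM, fragment numbers corrected for transcript length and for sequencing depth. The RNA was amplified and the evenness of coverage along transcripts is not given, so orders of members within a library are approximate. Summed over all genes, FPKM came to 67239000 in MI Ms1608 and 5736420 in Normal Ms1608, against 386964 to 1086570 in the others. Levels in different libraries may therefore not share a scale, and the cause was not tested. Depth was read from the steps between low values and came to between 32.6 M and 45.6 M fragments a library (M for mega), a value the protocol in the labels puts at about 10 M reads. Normal Ms1608 stood apart from the other 5 libraries, with a correlation of log2(FPKM + 1) across 10168 genes of 0.544 to 0.685 with them, against 0.798 to 0.917 among the other 5. The 12 endothelial markers summed to between 285 and 1128 FPKM in MI, against 1306 FPKM in Normal Ms1535, 928 FPKM in Normal Ms1537 and 38.3 FPKM in Normal Ms1608. The 9 leukocyte markers summed to between 2004 and 2354 FPKM in MI, against 270.4 FPKM in Normal Ms1535, 403 FPKM in Normal Ms1537 and 3799 FPKM in Normal Ms1608. No endothelial marker of this list was at 0 in any library, but 9 of the 12 were under 1 FPKM in Normal Ms1608. Pecam1 had 28.3 FPKM there, its highest value in any library and most of that sum.

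Of the 5 members, Loxl1, Loxl2 and Loxl3 were higher in each of the 3 MI libraries than in any Normal library, Lox was high in 2 MI libraries only, and Loxl4 was close to undetected throughout. Under limma with adjustment over all 30727 genes above 0 in at least 1 library, 0 of the 5 members passed an adjusted p of 0.05 in either direction, where 0.00325% of all genes were called higher and 0% lower. The 1 gene called was Gm24890, a small nuclear RNA gene named only because the count is 1. At an unadjusted p under 0.05, 3 of the 5 members were higher, against 6.42% of all genes, and 0 were lower, against 0.625%. Groups that did not overlap with MI higher were also found for 3 of the 5 members, against 12.6% of all genes and 25% of the 10168 genes that reach 1 FPKM in 3 or more libraries. The opposite order was found for 0 members, against 2% of all genes. Loxl1, Loxl2 and Loxl3 pass that minimum, and Lox and Loxl4 do not. Loxl2 passes only through its MI values of 6.05, 6.17 and 1.11 FPKM, and a gene that passes in this way cannot overlap. The 25% includes any genes of that kind, so it is no independent background for Loxl2.

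Lox, the founding member and the classic enzyme of fibrillar collagen and elastin crosslinking, lies on chromosome 18. It had 14.7, 33.02 and 0.255 FPKM in the MI libraries Ms1535, Ms1537 and Ms1608, against 0.258, 0.133 and 0.831 FPKM in Normal Ms1535, Ms1537 and Ms1608. MI Ms1608 was thus at the level of Normal Ms1535 and below Normal Ms1608, and the groups overlap. The MI mean was 16.0 ± 16.4 FPKM and the Normal mean 0.407 ± 0.372 (± SD, n = 3 each). On the log2(FPKM + 1) scale the difference was 2.67 (SE 1.23, limma adjusted p = 0.649), and it was 4.07 (SE 0.61, adjusted p = 0.590) without MI Ms1608 and 1.69 (SE 1.15, adjusted p = 0.766) without MI Ms1537. In MI Ms1608 the Lox value corresponds to about 39.4 fragments on the longest annotated transcript, and in MI Ms1535 and Ms1537 to about 3176 and 6060. These numbers rest on the depth read from the low values, and after amplification fragments are not independent molecules.

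Loxl1, which is known for elastic fibre maintenance, had 16.4, 31.4 and 6.20 FPKM in the MI libraries Ms1535, Ms1537 and Ms1608, against 4.41, 2.38 and 0.733 FPKM in the Normal libraries. It had the highest FPKM of the members in 4 of the 6 libraries, and its lowest MI value was 1.40 times its highest Normal value. The MI mean was 18.0 ± 12.7 FPKM and the Normal mean 2.51 ± 1.84 (± SD, n = 3 each). The log2 difference was 2.33 (SE 0.73, limma adjusted p = 0.649).

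Loxl2, an enzyme of basement membrane collagen that is also known to stabilise the transcription factor Snai1, had 6.05, 6.17 and 1.11 FPKM over the MI libraries, against 0.717, 0.858 and 0.0776 over the Normal ones. MI Ms1535 and Ms1537 were nearly level for this gene, unlike for Lox, Loxl1 and Loxl3, and MI Ms1608 lay just above the highest Normal library, at 1.29 times its value. The MI mean was 4.44 ± 2.89 FPKM and the Normal mean 0.551 ± 0.416 (± SD, n = 3 each), with a difference of 1.65 on the log2 scale (SE 0.64, adjusted p = 0.649 by limma).

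Loxl3, a crosslinking enzyme of cartilage and connective tissue, had 6.22, 13.4 and 2.46 FPKM over the MI libraries, against 0.873, 1.05 and 0.123 over the Normal ones. It had the widest gap of the 5 members, with the lowest MI value 2.35 times the highest Normal value. The MI mean was 7.35 ± 5.54 FPKM and the Normal mean 0.681 ± 0.491 (± SD, n = 3 each), and the log2 difference was 2.13 (SE 0.65, limma adjusted p = 0.649).

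Loxl4, the fifth member, had 0.0421, 0.0509 and 0.00809 FPKM in MI against 0.0460 FPKM in Normal Ms1535, 0.00804 FPKM in Normal Ms1537 and a listed 0 in Normal Ms1608. These values correspond to about 7.17, 7.37 and 0.984 fragments in MI and 7.01 and 0.987 fragments in Normal Ms1535 and Ms1537 on its longest transcript. A count of 3 fragments on that transcript equals 0.0176 to 0.0246 FPKM in these libraries, counting error alone. The log2 difference was 0.02 (SE 0.03, limma adjusted p = 0.693), and at this depth no difference was detectable.

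**Figure D1:**
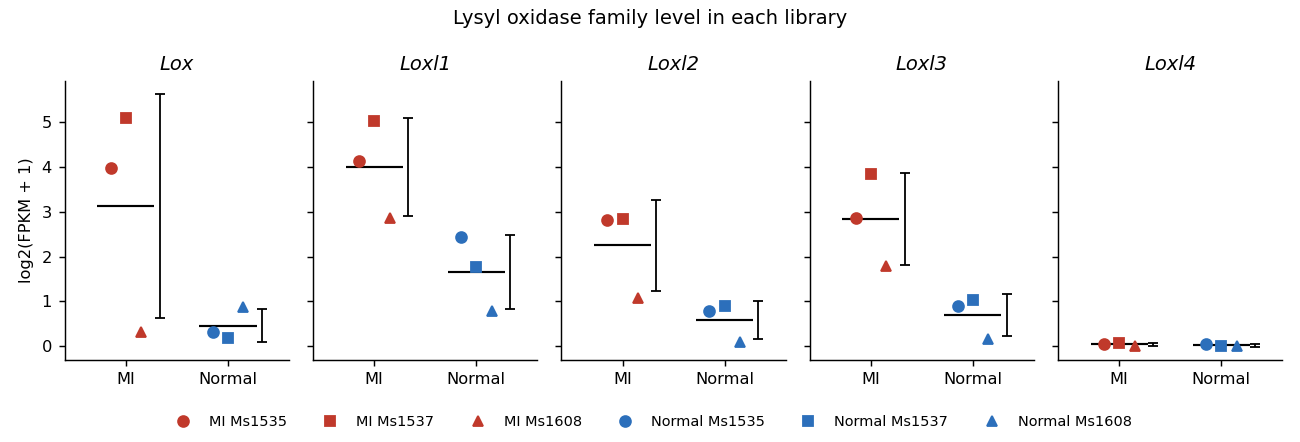
Level of each lysyl oxidase gene as log2(FPKM + 1), with 1 point per library, MI left of Normal, lines at the group means and bars of 1 SD (n = 3). The MI points of Loxl1, Loxl2 and Loxl3 lie above all Normal points, MI Ms1608 is the lowest MI point in every panel, and for Lox it lies at the level of Normal.

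A two-sided exact permutation test on log2(FPKM + 1) gave p = 0.1 for Loxl1, Loxl2 and Loxl3, the smallest p that 3 libraries against 3 allow, p = 0.3 for Lox and p = 0.4 for Loxl4. Groups of 3 without overlap always give 0.1 in this test, so that value only restates the lack of overlap. The comparison is not symmetric to begin with. Among the 10168 genes that reach 1 FPKM in 3 or more libraries, the median gene was 0.78 higher in MI on the same log2 scale, and Lox, Loxl1, Loxl2 and Loxl3 lay 1.88, 1.55, 0.87 and 1.34 above that median. When the libraries were rescaled by median ratio, by upper quartile and by quantiles, Loxl1 had log2 differences of 1.72, 1.64 and 1.31, Loxl2 of 1.16, 1.10 and 0.89, and Loxl3 of 1.6, 1.54 and 1.28. Under each of the 3 scalings Loxl3 alone still had no overlap between groups, against 5.75%, 5.14% and 4.41% of all genes. With median-ratio scaling, Loxl1 had 6.36 in MI Ms1608 against 6.52 in Normal Ms1535 in scaled FPKM, and Loxl2 had 1.14 in MI Ms1608 against 1.53 in Normal Ms1537. Without Normal Ms1608, the library that stands apart, the deposited values gave log2 differences of 1.90 for Loxl1, 1.41 for Loxl2, 1.86 for Loxl3 and 2.87 for Lox (limma adjusted p = 0.392, 0.497, 0.378 and 0.522). Leaving out a library cannot make groups overlap that were apart before, so Loxl1, Loxl2 and Loxl3 stay apart there by construction. Without that library, 25.3% of all genes had every MI library above every Normal library.

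**Figure D2:**
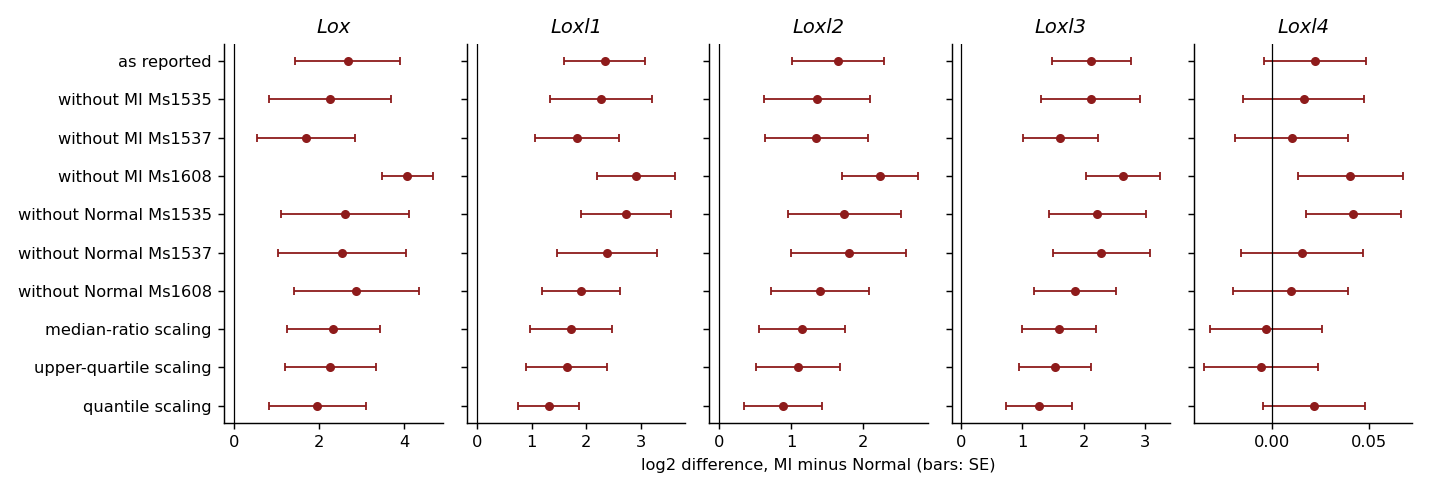
Log2 difference of each member (MI minus Normal, bars of 1 SE from limma), as reported, with each library left out in turn and after 3 scalings, with a separate horizontal scale per gene. Lox moves most, between 1.69 and 4.07 when 1 library is left out, and Lox, Loxl1, Loxl2 and Loxl3 are above 0 in every setting drawn.

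The members together summed to 43.4, 84.0 and 10.0 FPKM in the MI libraries Ms1535, Ms1537 and Ms1608, against 6.31, 4.43 and 1.76 FPKM in Normal Ms1535, Ms1537 and Ms1608. The order of the MI libraries was the same for Lox, Loxl1, Loxl2, Loxl3 and Loxl4, with Ms1537 highest and Ms1608 lowest. The make-up of the sum differed between libraries mainly in Lox, whose share was 33.8% and 39.3% in MI Ms1535 and Ms1537 and 2.54% in MI Ms1608, against 4.08%, 3.01% and 47.1% in Normal Ms1535, Ms1537 and Ms1608. In MI Ms1608 the family was therefore composed like that of Normal Ms1535 and Ms1537, at a higher level. Loxl1 made up 37.8%, 37.4% and 61.8% in MI, against 70.0%, 53.8% and 41.5% in Normal. Loxl2 was below Loxl3 in all 6 libraries, with a ratio of Loxl2 to Loxl3 of 0.973, 0.461 and 0.451 in MI and 0.821, 0.819 and 0.630 in Normal. Within a library, then, the order by FPKM was Lox or Loxl1 first and Loxl4 last.

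**Figure D3:**
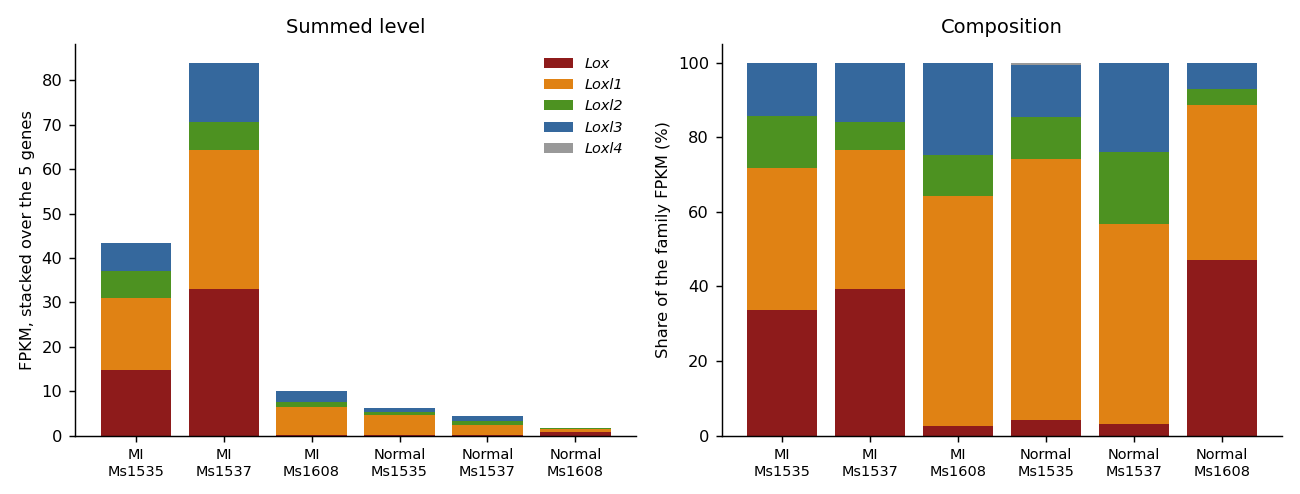
Left, FPKM of the 5 genes stacked per library, MI left of Normal. Right, the same values as percentages of the family sum, where Lox takes 33.8% and 39.3% in MI Ms1535 and Ms1537 but 2.54% in MI Ms1608, and 47.1% of a sum of 1.76 FPKM in Normal Ms1608.

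The substrates of the enzymes were listed as 12 genes of fibrillar collagens, type IV collagen and elastin. In this list 0 genes passed the limma threshold in either direction, 5 (41.7%) were higher at an unadjusted p under 0.05, against 6.42% of all genes, and 6 (50%) had every MI library above every Normal library, against 12.6% of all genes and 25% of those that reach 1 FPKM in 3 or more libraries. The median log2 difference was 1.34, against 0.04 over all 30727 genes. It was 2.71 with a pseudocount of 0.1, against 0.24 over all genes, and 3.13 over the 8 substrates that reach 1 FPKM in 3 libraries, against 0.78 over all such genes. Col1a2, a chain of type I collagen, had 738, 427 and 47.6 FPKM over the MI libraries, against 20.9, 23.7 and 37.9 over the Normal ones (difference 3.17 on the log2 scale, SE 1.05, adjusted p = 0.649 by limma). Col5a2, a chain of the type V collagen that starts fibrils, had 75.0, 57.3 and 4.87 FPKM over the MI libraries, against 3.12, 4.23 and 0.140 over the Normal ones. As for the family, MI Ms1608 was the lowest MI library for both genes. After median-ratio and upper-quartile scaling the groups of Col5a2 overlapped, and those of Col1a2 stayed apart. Eln, the gene of elastin and the main non-collagen substrate, had 1.69, 5.55 and 0.371 FPKM in MI, and was listed at 0 in Normal Ms1535 and Ms1608 with 0.0119 FPKM in Normal Ms1537. Its highest value was in MI Ms1537, the library with the highest Lox and Loxl1. Col4a1, a basement membrane chain, did not separate the groups, with 13.5, 35.2 and 7.46 FPKM over the MI libraries against 23.3, 15.0 and 0.429 over the Normal ones. The family sum was 2.30%, 5.94% and 7.32% of the summed FPKM of the 12 substrates in MI, against 6.41%, 5.42% and 2.12% in Normal, so that the ratio of enzyme to substrate RNA overlapped between groups.

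The activating proteases and matrix partners were listed as 14 genes. In this list 0 passed the limma threshold in either direction, 4 (28.6%) were higher at an unadjusted p under 0.05, 3 (21.4%) had no overlap between groups, and the median log2 difference was 2.11. The share without overlap lies between the 12.6% of all genes and the 25% of genes that reach 1 FPKM in 3 libraries. Bmp1, the procollagen C-proteinase that also frees Lox and Loxl1 from their propeptides, had 9.53, 10.4 and 1.64 FPKM over the MI libraries, against 0.978, 1.06 and 0.0595 over the Normal ones (difference 2.07 on the log2 scale, SE 0.71, adjusted p = 0.649 by limma). The pattern over libraries was close to that of Loxl2, with MI Ms1535 and Ms1537 level and MI Ms1608 just above Normal. After each of the 3 scalings its groups overlapped. Adamts2, the procollagen N-proteinase, had 26.0, 32.1 and 5.74 FPKM over the MI libraries, against 2.43, 1.86 and 0.161 over the Normal ones, and Postn, periostin, a matrix protein that aids the cleavage of Lox by Bmp1, had 310, 705 and 41.7 FPKM against 14.3, 14.8 and 2.07 FPKM. Both kept their groups apart under all 3 scalings. Fn1, fibronectin, differed from Bmp1, Adamts2 and Postn, with 277, 95.7 and 19.6 FPKM over the MI libraries and 6.13, 5.49 and 122.7 over the Normal ones. Its highest Normal value was that of Ms1608, which also held for Lox, Col1a2, Col3a1, Fbn1, Thbs1 and Adamts14, among others. Col3a1, a fibrillar collagen gene, had 40.9 FPKM in Normal Ms1608 against 42.7 in MI Ms1608.

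**Figure D4:**
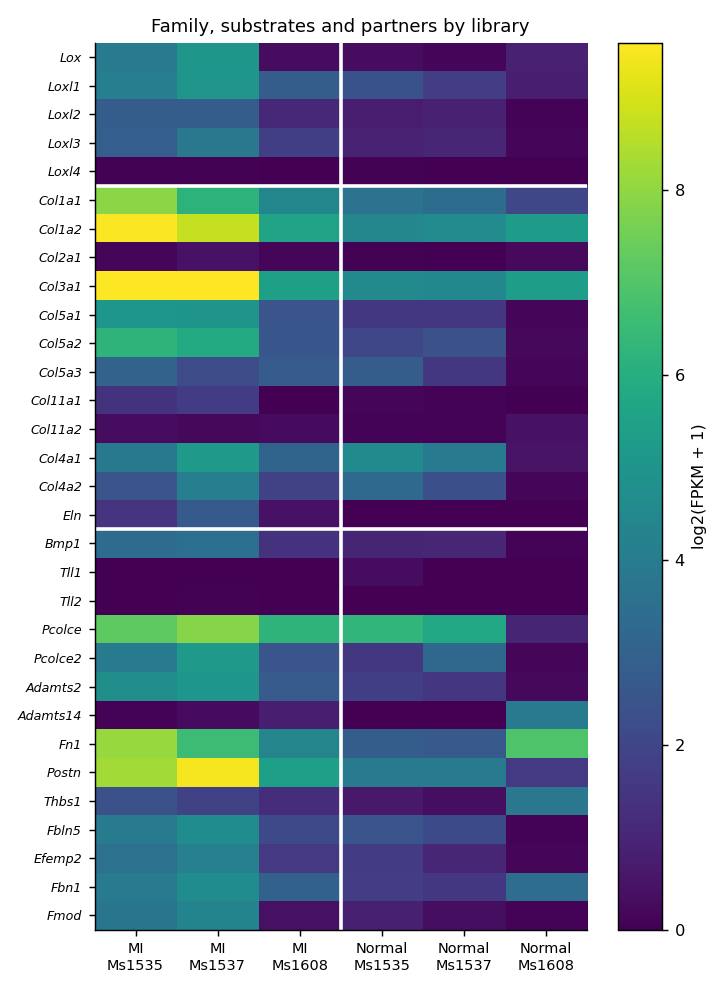
Level of the 5 family genes, the 12 substrates and the 14 proteases and partners (top to bottom, parted by white lines) in each library as log2(FPKM + 1), MI left of Normal. MI Ms1535 and Ms1537 are both above the other 4 libraries for 20 of the 31 genes, and MI Ms1608 lies between them and every Normal library for 12. Normal Ms1608 is under 1 FPKM for 23, but Fn1, Col3a1 and Col1a2 have 122.7, 40.9 and 37.9 FPKM there. These counts were not taken over all genes and describe only the genes drawn. Every MI library was above every Normal library for 12.6% of all genes and 25% of those that reach 1 FPKM in 3 libraries.

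Further lists held genes that act on the same collagens or regulate the enzymes. Of 5 genes that hydroxylate or glycosylate collagen lysines, 0 were called by limma, and 0 reached an unadjusted p under 0.05. All 5 reach 1 FPKM in 3 libraries, and their median log2 difference was 0.63, against 0.78 over all such genes. Plod2, a lysyl hydroxylase of collagen telopeptides, had 8.94, 3.00 and 1.18 FPKM over the MI libraries, against 2.35, 0.701 and 0.0997 over the Normal ones, with overlap. Of 13 inducers and linked regulators, 0 passed the limma threshold, and 2 (15.4%) were higher at an unadjusted p under 0.05, against 6.42% of all genes. In this list 4 (30.8%) had no overlap, and the median was 0.82. Among genes that reach 1 FPKM in 3 libraries, 25% had no overlap with MI higher and the median was 0.78, close to the values of this list. Tgfb3, a TGF-beta ligand, was at 13.7, 22.1 and 1.10 FPKM over the MI libraries and at 0.861, 0.625 and 0.141 over the Normal ones. Ctgf, a matricellular protein induced by TGF-beta, was at 20.8, 121.8 and 21.2 FPKM over the MI libraries and at 5.30, 6.22 and 3.44 over the Normal ones. Tgfb1, the ligand best known for inducing Lox, stayed below 0.3 FPKM in all 6 libraries. Hif1a, the hypoxia factor known to induce Lox, Loxl2 and Loxl4 in other cells, had 13.3, 15.5 and 6.46 FPKM over the MI libraries and 3.09, 2.91 and 11.8 over the Normal ones, with overlap through Normal Ms1608. Snai1 had 6.08, 2.39 and 2.63 FPKM over the MI libraries and 1.82, 1.01 and 0.130 over the Normal ones, a difference of 1.26 on the log2 scale (SE 0.56, adjusted p = 0.649 by limma). After median-ratio scaling the groups of Tgfb3 and Snai1 overlapped, and those of Ctgf stayed apart.

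Copper must be loaded into these enzymes in the secretory pathway, and 7 copper handling genes were listed for it. In this list 0 were called by limma, 0 reached an unadjusted p under 0.05, 0 had groups without overlap, and the median log2 difference was 0.55, or -0.01 without Normal Ms1608. Over the 5 of them that reach 1 FPKM in 3 libraries the median was 0.66, against 0.78 over all such genes. Atox1, the chaperone that passes copper to the Golgi pumps, had 77.4, 106.4 and 55.7 FPKM over the MI libraries and 67.4, 44.0 and 38.5 over the Normal ones. Atp7a, the pump that supplies lysyl oxidases, was below 0.2 FPKM in all libraries but Normal Ms1608, where it had 8.30 FPKM. In the 2 MI libraries with high Lox, Atp7a was at 0.0189 and 0.176 FPKM.

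**Figure D5:**
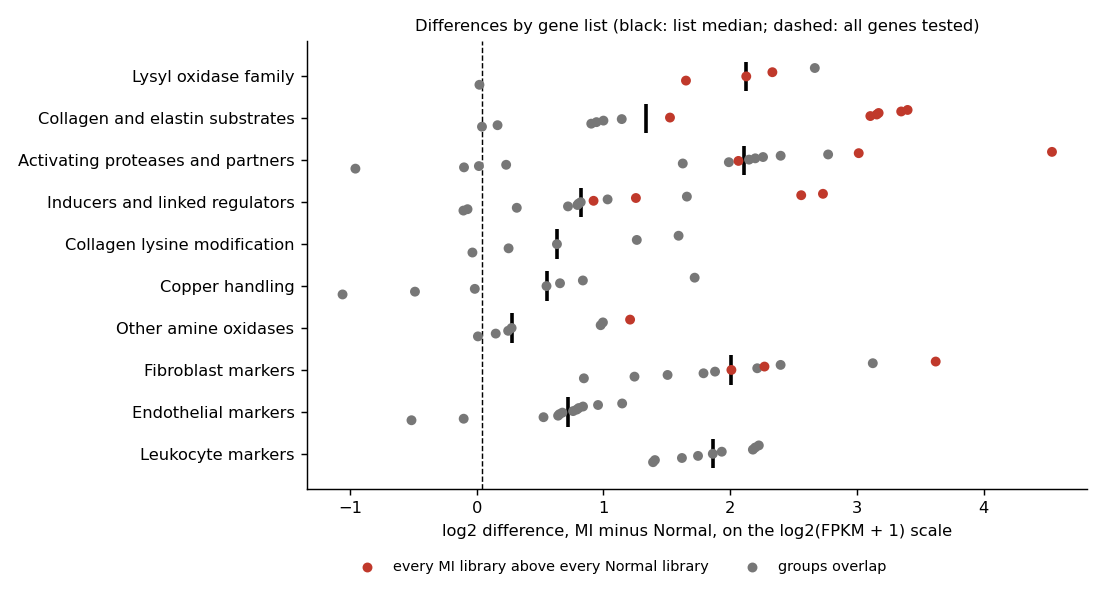
Log2 difference (MI minus Normal) of every listed gene, 1 point per gene, with red points where every MI library was above every Normal library, a black bar at each list's median and a dashed line at the median of all 30727 genes. The family, its substrates, the proteases and partners and the fibroblast markers have medians of 2.13, 1.34, 2.11 and 2.01, and copper handling and other amine oxidases have medians of 0.55 and 0.28. The median over the 10168 genes that reach 1 FPKM in 3 libraries is 0.78 and is not drawn.

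Marker levels of other cell types differed between the same libraries. In bulk RNA of a sort, more cells of a type and more RNA per cell cannot be told apart. All 11 fibroblast markers had log2 differences above 0, as did 19661 of all 30727 genes. Their median was 2.01, against 0.78 over genes that reach 1 FPKM in 3 libraries, and 1.43 without Normal Ms1608. Of these markers 0 passed the limma threshold, and 4 (36.4%) were higher at an unadjusted p under 0.05, against 6.42% of all genes. Groups did not overlap for 3 (27.3%), a share near the 25% of genes that reach 1 FPKM in 3 libraries. The summed FPKM of the fibroblast markers ranged from 1183 to 4533 in MI and from 149 to 1102 in Normal, and only Fap was at 0, in Normal Ms1608. Lum, the collagen-binding proteoglycan lumican, had 357, 299 and 40.1 FPKM over the MI libraries and 30.8, 37.3 and 0.943 over the Normal ones, and its groups overlapped after median-ratio scaling. The family sum was 1.07%, 1.85% and 0.848% of the fibroblast sum in MI, against 0.683%, 0.402% and 1.18% in Normal, and the groups overlapped. It was 9.53%, 7.44% and 3.52% of the endothelial sum in MI, against 0.483%, 0.477% and 4.61% in Normal, where the overlap came from Normal Ms1608. A single gene carried most of each endothelial sum, but not the same gene throughout. Egfl7 was the largest in every library but Normal Ms1608, for example with 909 of 1306 FPKM in Normal Ms1535. In Normal Ms1608 Egfl7 had only 5.27 FPKM, while Pecam1 made up 28.3 of the 38.3. The percentage there is thus set mainly against another gene than in the other libraries. The 12 endothelial markers had a median log2 difference of 0.72, or -0.61 without Normal Ms1608. The 9 leukocyte markers had a median log2 difference of 1.86, or 3.11 without that library, with sums of 2004 to 2354 FPKM in MI against 270.4 to 3799 FPKM in Normal. The 7 macrophage markers had a median log2 difference of 1.43, with sums of 759 to 2294 FPKM in MI and 153 to 2572 FPKM in Normal, and Adgre1, which encodes F4/80, was at 0.282, 1.70 and 7.21 FPKM over the MI libraries and 0.128, 0.247 and 0.00904 over the Normal ones. The 7 cardiomyocyte markers summed to 146 to 966 FPKM in MI and 8.35 to 789 FPKM in Normal, with 0.40 as their median log2 difference and -0.18 without Normal Ms1608, and Nppa was listed at 0 in that library. The 9 smooth muscle and pericyte markers summed to 25.7 to 33.5 FPKM in MI and 1.22 to 31.0 FPKM in Normal, with a median log2 difference of 0.19, or -0.06 without Normal Ms1608, and Myh11 and Cnn1 were listed at 0 in Normal Ms1535 and Normal Ms1537 in that order. Dcn, Cd52 and Lyz2 were the largest of the fibroblast, leukocyte and macrophage markers in every library, so each of those sums mostly follows a single gene. The part of each cell type in the family's differences was not tested.

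The genes whose pattern over the 6 libraries was most like that of a member were found by the root mean square distance between centred log2(FPKM + 1) profiles, among 8811 other protein-coding genes that reach that same minimum. For Loxl3 the nearest was Pdgfra, a PDGF receptor listed here among the fibroblast markers, at a distance of 0.157, followed by Sema3c, a secreted semaphorin, at 0.161 and Brpf1, a chromatin reader, at 0.166. Pdgfra had 5.61, 14.2 and 2.43 FPKM over the MI libraries and 1.37, 1.14 and 0.0375 over the Normal ones. For Loxl2 the nearest were Setdb2, Efs and Cdc14a, at 0.0685, 0.10001 and 0.129. For Loxl1 they were Zkscan3, Oat and Wac, at 0.199, 0.203 and 0.210. Among family members, Loxl3 was the one nearest to Loxl1, at 0.311 and rank 27, and Loxl2 was farther from Loxl1, at 0.518 and rank 283. Over 6 libraries many genes share such a pattern, and the distances describe these libraries only.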

How the data were processed

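The deposited table holds FPKM values, 1 column per library, for 45038 genes. The authors used STAR 2.4.2a, Cufflinks 2.2.1 and the mouse build GRCm38, per the submitters' processing notes, and RNA was amplified by T7 in vitro transcription, per the labels' protocols. The annotation release, strand setting and treatment of multi-mapping reads are not given in the sources used here. MI was compared with Normal on log2(FPKM + 1) by limma 3.58.1 (R 4.3.3), with the trend option on, group as the only term and no further scaling. Every gene above 0 in at least 1 of the 6 libraries was tested, with Benjamini-Hochberg adjustment over all 30727 and a threshold of 0.05. A difference is MI minus Normal, and the pseudocount of 1 understates changes of low genes. The script was run on simulated data with a smaller spread than the MI libraries, no library that stands apart and no shift of the median gene. That run cannot show how the fit performs on these libraries.

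Depth was read from the low values of genes with 1 transcript over 2 kb: 83.2% to 89.0% lay within 0.1 of a whole number of fragments, a step fitted to these same values, and approximate fragments of a member use its longest GENCODE M21 transcript (44394 identifiers matched). Named genes are the 5 members, a fixed set, up to 3 genes per list with the largest difference among those with 1 FPKM in 3 libraries, and the 3 nearest profiles per member that meets this minimum. Lists came from textbook knowledge, and members and lists were chosen with earlier results of these data known. For lists, counts and medians stand in place of a set test.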

Additional observations from a re-analysis of the deposited data

How the results depend on the processing

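Over all settings run (17 besides the reported one, 15 to 17 of which gave a value for each member), no member passed an adjusted p of 0.05. Lox, Loxl1, Loxl2 and Loxl3 kept their direction, with ranges of 1.55 to 4.27, 1.31 to 2.91, 0.72 to 2.80 and 1.03 to 3.26. The lowest adjusted p was 0.195, for Lox without both libraries numbered Ms1608. Loxl4 turned to -0.0033 after median-ratio and -0.0060 after upper-quartile scaling, the cause of which was not tested. With 1 library left out, the differences ranged from 1.69 to 4.07 for Lox, 1.82 to 2.91 for Loxl1, 1.35 to 2.24 for Loxl2, 1.62 to 2.65 for Loxl3 and 0.0094 to 0.0418 for Loxl4.

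Of all genes, 1 was called higher as reported, 0 with a pseudocount of 5, 0 with a replicate block, 4 without the mean-variance trend, 5 without both Ms1608 libraries and 0 without them in pairs with the replicate block. It was 0 to 0 with 1 library left out. Deviations of same-numbered libraries from their group means had correlations of -0.05, 0.098 and 0.087 over 10168 genes, and not every library correlated best with its own number. With 3 libraries a group, such correlations cannot show whether a number marks a shared mouse. The number was left out of the reported fit and used only as the replicate block. With the replicate block the members had the same differences, with adjusted p of 0.647 for Lox, Loxl1, Loxl2 and Loxl3. A filter of 1 FPKM in 3 libraries leaves out Lox and Loxl4, and one of mean 5 FPKM leaves out Loxl2, Loxl3 and Loxl4. With 3 libraries a group, values of Loxl4 near 1 fragment limit what can be seen.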

Other observations

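Other enzymes that oxidise amines were set beside the lysyl oxidases as a list of 7 genes. In this list 0 passed the limma threshold in either direction, and 0 had an unadjusted p under 0.05. Groups without overlap were found for 1 gene (14.3%), Maob, named after its values were seen. That share was 12.6% over all genes and 25% over those that reach 1 FPKM in 3 libraries. The median log2 difference of the list was 0.28, against 0.04 over all genes. The list median depends on the setting: it was 0.54 without Normal Ms1608, 0.92 without both Ms1608 libraries with or without the replicate block, 1.18 with a pseudocount of 0.1, and 0.98 over the 3 genes that reach 1 FPKM in 3 libraries. In the same settings the median over all genes was 0.06, 0.07 and 0.24, and 0.78 over all that reach 1 FPKM in 3 libraries. Aoc3, a copper amine oxidase on the surface of vessels, had 4.30, 4.04 and 0.887 FPKM over the MI libraries, against 1.98, 1.17 and 0.0189 over the Normal ones, with overlap. Maoa, a mitochondrial monoamine oxidase, had 3.89, 6.15 and 0.520 FPKM over the MI libraries and 1.68, 1.44 and 0.0267 over the Normal ones. Smox, which oxidises spermine, had 9.28, 10.99 and 7.92 FPKM over the MI libraries and 7.88, 2.85 and 17.1 over the Normal ones, with its highest value in Normal Ms1608.

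Atp7a at 8.30 FPKM, Adamts14 at 14.9 FPKM and Thbs1 at 13.0 FPKM were each at their highest in Normal Ms1608, where the other Normal libraries had at most 0.164, 0.0172 and 0.581 FPKM. Adamts14 and Thbs1 were singled out after their values were seen.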
